A study of Homo sapiens with 10 samples.

Results

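The neuropeptide genes described here are 9 precursor genes, NPY, NTS, GAL, VIP, ADCYAP1, SST, TAC1, PENK and CARTPT, out of 27992 gene symbols measured in SH-SY5Y cells. They were chosen by gene symbol from a table whose values for these genes were already known, and the level of a gene is the mean over its transcripts in each of the 10 libraries. SH-SY5Y is a human neuroblastoma line. Cells were stably transfected either with the pcDNA3 expression vector alone or with a pcDNA3 construct of the FOXP2 cDNA of human (hsa), common chimpanzee (ptr), Rhesus monkey (mmu) or white-tufted ear marmoset (cja), and RNA-seq gave 2 libraries in each of the 5 conditions. FOXP2 is a forkhead transcription factor with a role in speech and language. In pcDNA3 the insert is driven by the cytomegalovirus promoter, and all transfectants, the controls included, were kept in the antibiotic geneticin. Libraries A and B come from separate rounds of transfection of the same line, so the spread between them is the spread between such transfections. The study's design calls the transfectants clones, and the sources used here do not say whether a library holds 1 clone or a pool. Levels are in BPKM, the mapped bases scaled to the exon length of a transcript and to the total of the library, a measure per length that allows genes to be set side by side.

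Neuropeptides are cut from larger precursor proteins in the secretory pathway, stored in dense-core vesicles and released to act mostly on G protein-coupled receptors. Sympathetic neurons, the lineage from which neuroblastoma arises, use several of them beside noradrenaline or acetylcholine. Many neuropeptide genes respond to cyclic AMP through the cAMP response element (CRE), a short promoter motif bound by the CREB family.

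Of the 9 genes, 4 were detected, VIP, NTS, NPY and GAL, each in all 10 libraries. The other 5, ADCYAP1, SST, TAC1, PENK and CARTPT, were listed at 0 in every library, with 11 of the 17 transcripts of the 9 genes. Among all symbols, 4644 (16.6%) were listed at 0 throughout. The absolute sequencing depth is unknown, so no floor can be set on a value of 0.

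RefSeq promoter sequences (GRCh38.p14, from 250 bases before to 50 bases after the transcription start) were at hand for 7 of the 9 genes. The stretches below cover the 150 bases before the start, 5′ to 3′ on the gene's strand, for the 3 most abundant precursors and for the 2 undetected ones with a complete CRE. They are shown because the detected and the undetected genes can be set side by side at the CRE. Capitals mark the CRE core, TGACG or its reverse complement CGTCA, and the complete palindrome TGACGTCA holds the core on both strands.
VIP, chr6:152750647-152750796, plus strand: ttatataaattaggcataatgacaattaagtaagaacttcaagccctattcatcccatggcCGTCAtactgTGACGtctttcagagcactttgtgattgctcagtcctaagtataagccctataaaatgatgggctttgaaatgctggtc
NPY, chr7:24284040-24284189, plus strand: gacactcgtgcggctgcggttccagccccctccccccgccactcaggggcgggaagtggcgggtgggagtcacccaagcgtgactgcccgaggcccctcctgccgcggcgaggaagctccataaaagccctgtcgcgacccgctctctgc
NTS, chr12:85874145-85874294, plus strand: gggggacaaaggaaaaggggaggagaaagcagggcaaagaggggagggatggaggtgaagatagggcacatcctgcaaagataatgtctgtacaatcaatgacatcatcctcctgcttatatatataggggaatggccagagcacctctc
SST, chr3:187670395-187670544, minus strand: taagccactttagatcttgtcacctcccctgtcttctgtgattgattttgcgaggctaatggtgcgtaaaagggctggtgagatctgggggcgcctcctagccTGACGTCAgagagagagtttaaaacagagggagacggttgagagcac
CARTPT, chr5:71719125-71719274, plus strand: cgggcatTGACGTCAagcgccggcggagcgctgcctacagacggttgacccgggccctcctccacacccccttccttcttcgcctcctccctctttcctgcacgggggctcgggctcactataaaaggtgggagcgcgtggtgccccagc

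The complete CRE lay in the windows of SST, with its first base at position -47 from the start, and of CARTPT, at -143, both genes listed at 0 in all 10 libraries. It was found in 1.85% of 35116 promoter windows of the same length. VIP, the most abundant of the 9, had the core at -89 and at -79 and no complete CRE. NTS had the core at -234 and -192, outside the stretch shown, ADCYAP1 at -238 in 1 of its 2 windows, TAC1 at -197, and NPY had none. The core was found in 24.6% of all windows. Of other motifs searched on both strands, the AP-1 site TGANTCA (7.71% of all windows) and the FOXP2 core AATTTG (10.7%) were in none of the windows of the 7 genes, and the forkhead motif TATTTAT (4.93%) was at -30 in TAC1. These matches are a description of the letters in these windows only.

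Some facts of the whole series bear on the values. The libraries were of similar relative depth (1 to 1.27 by a rough estimate from the spacing of the lowest values), with 20200 to 20794 genes above 0. FOXP2 RNA was 0.0045 and 0 BPKM in the pcDNA3 libraries A and B, 1.54 and 0.932 with hsaFOXP2, 2.09 and 21.8 with ptrFOXP2, 30.2 and 3.91 with mmuFOXP2, and 14.5 and 18.3 with cjaFOXP2. It was therefore lowest among the transfectants in the 2 hsaFOXP2 libraries. The origin of the cDNA and the level of FOXP2 RNA cannot be told apart there. These values are RNA only. From Western blot densitometry, the paper proposes about equal FOXP2 protein in the human and non-human transfectants, and FOXP2 was not among its differential genes. The hsaFOXP2 libraries also stood further apart from each other than those of other conditions. Among 10804 genes with a mean of 1 to 20 BPKM, the 99th percentile of the fold difference between rounds was 7.24 with hsaFOXP2 and 2.02 to 2.65 in the other conditions. Of the markers of noradrenergic neuroblasts, TH, the rate-limiting enzyme of catecholamine synthesis, was listed at 0 in 9 of 10 libraries (0.002 BPKM in mmuFOXP2 B). DBH, which makes noradrenaline from dopamine, was at 0.396 to 4.15 BPKM, and the transcription factor HAND2 at 84.8 to 152 BPKM. In bulk RNA, fewer cells of a type and less RNA per cell cannot be told apart.

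VIP encodes vasoactive intestinal peptide, which relaxes smooth muscle and raises cyclic AMP in its target cells. It had 20.1 and 13.6 BPKM in the pcDNA3 libraries A and B, 50.5 and 5.42 with hsaFOXP2, 11 and 10.3 with ptrFOXP2, 7.50 and 12.7 with mmuFOXP2, and 16.2 and 3.40 with cjaFOXP2. hsaFOXP2 A was the highest library and cjaFOXP2 B the lowest, 14.8-fold apart, while the ptrFOXP2 libraries were nearly equal. The condition means were 28.0 ± 31.9 with hsaFOXP2, 16.9 ± 4.60 with pcDNA3, 10.6 ± 0.502 with ptrFOXP2, 10.1 ± 3.70 with mmuFOXP2 and 9.79 ± 9.04 BPKM with cjaFOXP2 (SD, n = 2 each). The hsaFOXP2 range takes in every other library but cjaFOXP2 B, and the 3 non-human means differed from each other by less than the SD of mmuFOXP2 or cjaFOXP2. The 3 VIP transcripts of the table gave the same picture, with a spread of 0.665% to 8.5% within a library.

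NTS encodes neurotensin, which acts on gut motility and dopamine signalling. Its levels were 9.68 and 13.9 BPKM with pcDNA3, 18.3 and 1.17 with hsaFOXP2, 5.03 and 0.377 with ptrFOXP2, 6.33 and 9.04 with mmuFOXP2, and 12 and 5.94 with cjaFOXP2. The highest library was again hsaFOXP2 A, and the lowest were ptrFOXP2 B and hsaFOXP2 B. By condition the order was pcDNA3 (11.8 ± 2.96), hsaFOXP2 (9.73 ± 12.1), cjaFOXP2 (8.97 ± 4.29), mmuFOXP2 (7.69 ± 1.91) and ptrFOXP2 (2.71 ± 3.29 BPKM; SD, n = 2 each). The first 4 conditions overlapped with their neighbours in this order. ptrFOXP2, with the lowest mean, overlapped with hsaFOXP2, and ptrFOXP2 A (5.03 BPKM) was close to cjaFOXP2 B (5.94 BPKM).

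NPY encodes neuropeptide Y, the main peptide co-transmitter of noradrenergic sympathetic neurons. It had 4.83 and 4.61 BPKM with pcDNA3, 18.1 and 4.78 with hsaFOXP2, 1.66 and 3.62 with ptrFOXP2, 0.564 and 2.88 with mmuFOXP2, and 1.38 and 0.208 with cjaFOXP2. With an 87.3-fold range it varied most of the 4 genes, and the pcDNA3 libraries were nearly equal. Condition means were in the order hsaFOXP2 (11.5 ± 9.44), pcDNA3 (4.72 ± 0.157), ptrFOXP2 (2.64 ± 1.39), mmuFOXP2 (1.72 ± 1.64) and cjaFOXP2 (0.794 ± 0.830 BPKM; SD, n = 2 each). hsaFOXP2 B lay within the narrow pcDNA3 range, so these neighbours were not separated, and neighbours among the 3 non-human conditions overlapped as well. All 6 non-human FOXP2 libraries were below both pcDNA3 libraries, as for 3.51% of the genes tested. They were also below both hsaFOXP2 libraries, as for 3.61%.

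GAL encodes galanin, a peptide that mostly inhibits transmitter release. Its mean over the 10 libraries (1.06 BPKM) was the lowest of the detected precursors, and it had 2.48 and 0.817 BPKM with pcDNA3, 0.894 and 2.00 with hsaFOXP2, 0.760 and 0.382 with ptrFOXP2, 1.20 and 1.19 with mmuFOXP2, and 0.350 and 0.548 with cjaFOXP2. The hsaFOXP2 libraries were in the opposite order here, B above A. Means were 1.65 ± 1.17 with pcDNA3, 1.45 ± 0.784 with hsaFOXP2, 1.19 ± 0.0054 with mmuFOXP2, 0.571 ± 0.267 with ptrFOXP2 and 0.449 ± 0.140 BPKM with cjaFOXP2 (SD, n = 2 each). pcDNA3, hsaFOXP2 and mmuFOXP2 overlapped, as did ptrFOXP2 and cjaFOXP2. These sets came as close as 0.817 (pcDNA3 B) and 0.760 BPKM (ptrFOXP2 A). The share of all genes with such a split was not computed.

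**Figure D1:**
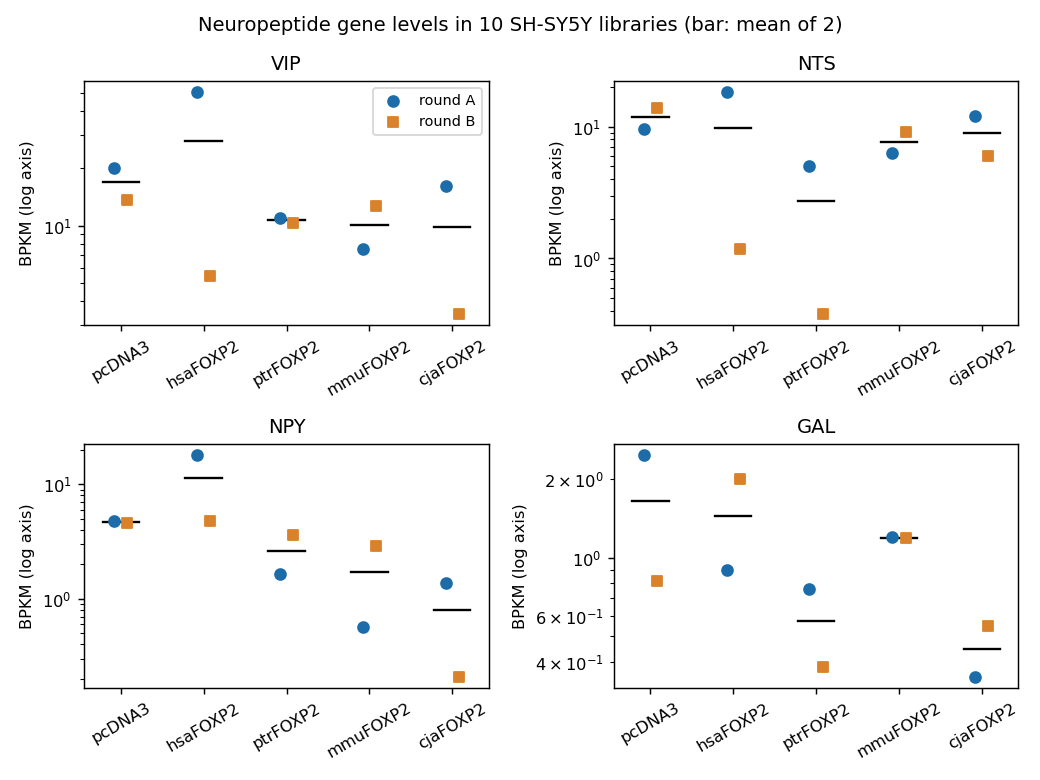
Level of VIP, NTS, NPY and GAL (BPKM, log axis) in the 10 libraries, with circles for round A, squares for round B and a bar at the mean of both. hsaFOXP2 A is the highest library for VIP (50.5), NTS (18.3) and NPY (18.1 BPKM), and hsaFOXP2 B (5.42, 1.17 and 4.78 BPKM) is far below it in each.

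Among the undetected precursors, ADCYAP1 encodes PACAP, a close relative of VIP. SST encodes somatostatin, which inhibits hormone release, and TAC1 encodes substance P and neurokinin A. PENK encodes the enkephalins, which are opioid peptides, and CARTPT a peptide that reduces feeding. ADCYAP1 was listed at 0 although its relative VIP was the most abundant of the 9.

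The mixture of the 4 detected precursors also differed between libraries. Summed over the 4 genes, the level was 37.1 and 32.9 BPKM with pcDNA3, 87.8 and 13.4 with hsaFOXP2, 18.5 and 14.7 with ptrFOXP2, 15.6 and 25.9 with mmuFOXP2, and 29.9 and 10.1 with cjaFOXP2. VIP made up the largest share in 8 of 10 libraries and between 33.7% (cjaFOXP2 B) and 70.2% (ptrFOXP2 B) of the sum. NTS led in cjaFOXP2 B with 58.8% and in pcDNA3 B with 42.1% (VIP 41.4%), and made up as little as 2.57% in ptrFOXP2 B. NPY reached 35.7% in hsaFOXP2 B and was as low as 2.06% in cjaFOXP2 B. Shares of a sum are not independent of each other, since a gene that rises lowers the share of the others.

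**Figure D2:**
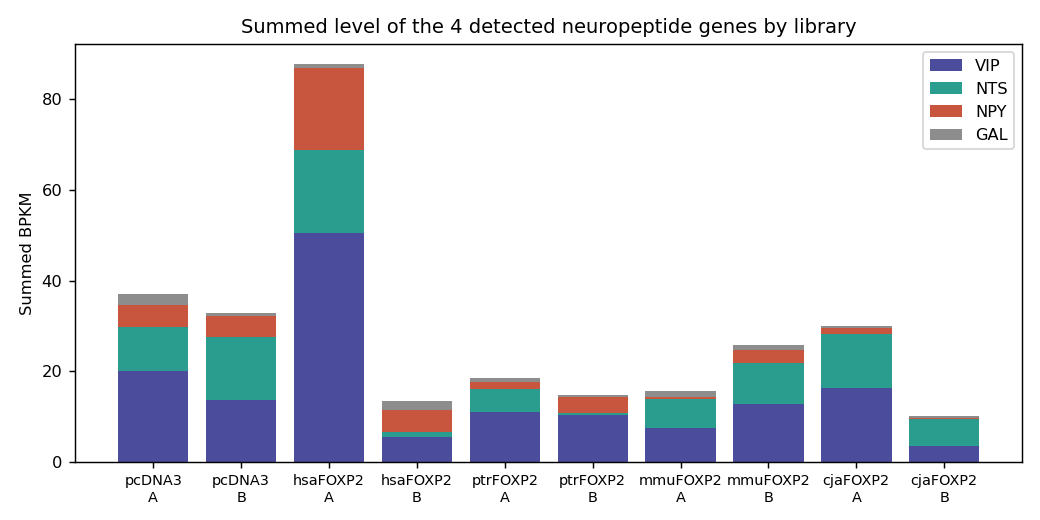
Summed level (BPKM) of VIP, NTS, NPY and GAL in each of the 10 libraries, as stacked bars. hsaFOXP2 A holds the highest sum (87.8 BPKM) and cjaFOXP2 B the lowest (10.1 BPKM), where NTS and not VIP is the largest part.

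The comparison of human with non-human FOXP2 was the main question of the study. On the scale of log2(BPKM + 0.1), the 2 hsaFOXP2 libraries exceeded the 6 non-human ones by 2.81 (SE 0.94) for NPY, 0.92 (SE 0.49) for GAL, 0.85 (SE 0.81) for VIP and 0.05 (SE 1.31) for NTS. The levels behind these differences were 11.5 ± 9.44 (n = 2) against 1.72 ± 1.32 BPKM (n = 6) for NPY, 1.45 ± 0.784 against 0.738 ± 0.382 for GAL, 28.0 ± 31.9 against 10.2 ± 4.39 for VIP, and 9.73 ± 12.1 against 6.46 ± 3.92 for NTS. Each SE rests on a spread shared by both groups, although the hsaFOXP2 libraries stood further apart than those of other conditions. The members were chosen with these values known, so the differences are a description and carry no p. Across all 21937 genes tested with limma (Benjamini-Hochberg adjustment, threshold 0.05), 2 genes passed (0.00912%), and 0 of the 4 detected precursors did. The 2 genes, named after their values were seen, were MSN, which encodes the membrane-cytoskeleton linker moesin (log2 difference -4.89, adjusted p = 0.00117 from limma), and DQ570906 (log2 difference 1.98, adjusted p = 0.011 from limma). At an unadjusted p under 0.05 there were 973 genes. Of the 4 precursors only NPY had both hsaFOXP2 libraries above all 6 non-human ones (lowest 4.78, highest non-human 3.62 BPKM), a separation that 3.61% of the tested genes show.

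The differences of VIP and NTS depended on the hsaFOXP2 library that was left out. Without hsaFOXP2 A, in which case the remaining hsaFOXP2 library is assumed to vary like the others, the log2 difference was -0.75 for VIP and -1.88 for NTS, and without hsaFOXP2 B it was 2.45 and 1.97. That of NTS was also negative, -0.61, without ptrFOXP2 B. For NPY it was 1.86 without hsaFOXP2 A and 3.76 without hsaFOXP2 B, and for GAL 1.46 and 0.38. The noradrenergic markers had differences of the same sign as NPY. All 13 tested had a positive log2 difference between hsaFOXP2 and non-human FOXP2, with a median of 0.71 against 0.01 over all genes, and 0 of 13 passed in limma (5 at an unadjusted p under 0.05). Their summed level was 305 to 423 BPKM in the hsaFOXP2 libraries, 214 to 392 BPKM in the 6 non-human ones and 294 to 310 BPKM in the controls, and their part in the NPY difference was not tested.

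Empty vector was the control of the transfection. The mean of the 4 FOXP2 conditions was lower than pcDNA3 for each of the 4 precursors on the log2 scale, by -1.31 (SE 1.08) for NTS, -1.14 (SE 0.79) for NPY, -0.78 (SE 0.44) for GAL and -0.63 (SE 0.82) for VIP. Each of these differences was within 2 SE, and 0 of the 4 passed in limma, where 1 of 22238 genes did (0.0045%; 794 at an unadjusted p under 0.05). That gene, DQ591726, was named after its value was seen (log2 difference -1.22, adjusted p = 0.0019 from limma). Several of these differences depended on single libraries. That of GAL was -0.03 without pcDNA3 A and -1.52 without pcDNA3 B. That of VIP was -0.23 without hsaFOXP2 B, -0.35 without pcDNA3 A, -0.36 without cjaFOXP2 B and -1.03 without hsaFOXP2 A, and that of NTS was -0.83 without hsaFOXP2 B. Both pcDNA3 libraries lay above all 6 non-human FOXP2 libraries for NPY only (lowest 4.61, highest 3.62 BPKM), as for 3.51% of the genes tested. The FOXP2 conditions did not all lie below pcDNA3. In BPKM, the hsaFOXP2 mean was above that of pcDNA3 for NPY (11.5 against 4.72) and VIP (28.0 against 16.9). It was below that of pcDNA3 for NTS (9.73 against 11.8) and GAL (1.45 against 1.65). The 12 of 13 noradrenergic markers with a negative log2 difference (median -0.95 against -0.03 over all genes, 6 at an unadjusted p under 0.05 and 0 passing in limma) had the sign of the 4 precursors, and their part was not tested.

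Between the rounds of transfection, NTS was higher in A than in B by 1.45 (SE 0.73) and VIP by 1.06 (SE 0.56) on the log2 scale with condition as a covariate, and the differences of NPY (0.20, SE 0.66) and GAL (0.15, SE 0.37) were within their SE. Of 22238 genes 0 passed in limma (0%), the 4 precursors included, against 2442 at an unadjusted p under 0.05. Without either hsaFOXP2 library, whose partner then adds nothing to this difference, it was 0.85 for NTS and 0.53 for VIP, and without either ptrFOXP2 library it was 0.96 for NTS. The rounds did not shift the precursors uniformly. NTS was higher in A in 3 conditions, 15.6-fold with hsaFOXP2, 13.3-fold with ptrFOXP2 and 2.02-fold with cjaFOXP2, and 1.43-fold higher in B in both others. VIP was 9.33-fold higher in A with hsaFOXP2 and 4.75-fold with cjaFOXP2, but 1.70-fold higher in B with mmuFOXP2. NPY was higher in A 6.65-fold with cjaFOXP2 and 3.80-fold with hsaFOXP2, and higher in B 5.11-fold with mmuFOXP2 and 2.18-fold with ptrFOXP2. GAL was 3.03-fold higher in A with pcDNA3 and 2.24-fold higher in B with hsaFOXP2.

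These ratios were set beside those of the 10804 genes with a mean of 1 to 20 BPKM, whose median fold difference between rounds was 1.14 to 1.29. Of the 20 ratios (4 genes in 5 conditions), 7 lay beyond the 99th percentile of that condition, 2 each for NPY, NTS and VIP and 1 for GAL. With ptrFOXP2, 3 of the 10804 genes had a fold difference at least as large as that of NTS. With cjaFOXP2, 6 had one as large as that of NPY and 10 as large as that of VIP. With mmuFOXP2 it was 26 genes for NPY, and with pcDNA3 17 genes for GAL. With hsaFOXP2, where many genes differed between rounds, 52 genes reached the fold of NTS, 84 that of VIP and 290 that of NPY. Several of these ratios had a value below 1 BPKM in the lower library. These were NPY in cjaFOXP2 B (0.208) and mmuFOXP2 A (0.564 BPKM), NTS in ptrFOXP2 B (0.377) and GAL in pcDNA3 B (0.817 BPKM). GAL, with a mean of 1.06 BPKM, lies at the lower edge of the range of compared genes. A closer matching by level was not done. The precursors were chosen with these values known, and no test is given.

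**Figure D3:**
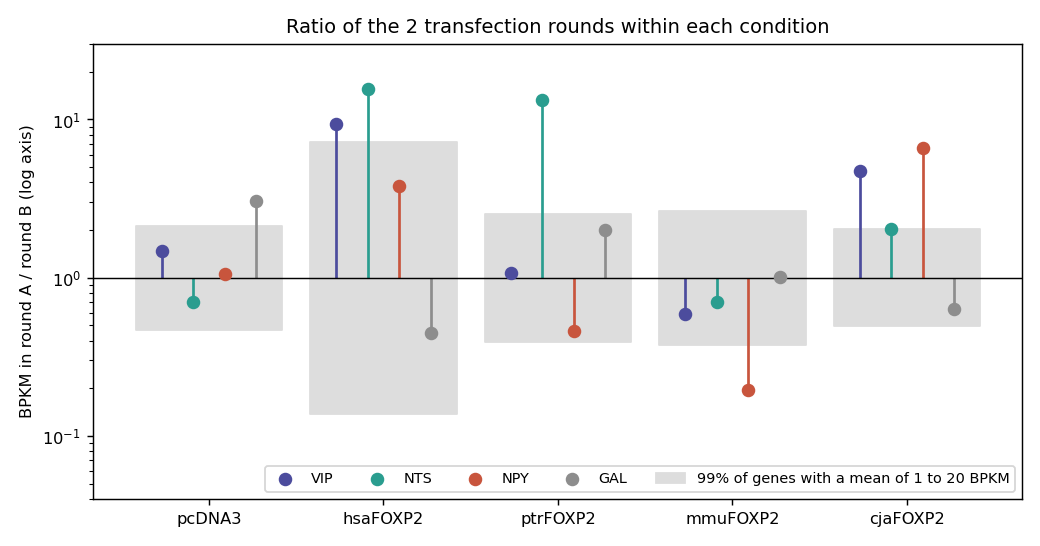
Ratio of the level in round A to that in round B (log axis) for VIP, NTS, NPY and GAL in the 5 conditions, with the grey band holding the ratios of 99% of genes with a mean of 1 to 20 BPKM. NTS leaves the band with hsaFOXP2 (15.6) and ptrFOXP2 (13.3), NPY is below it with mmuFOXP2 and above it with cjaFOXP2, and the band itself is widest with hsaFOXP2.

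By a fixed rule, the 3 genes whose pattern over the 10 libraries was most like that of each detected precursor were taken from the 13412 genes averaging at least 1 BPKM, by Pearson's r of log2(BPKM + 0.1). The libraries share conditions and rounds, and r is a description. For VIP they were SLC5A7, the high-affinity choline transporter (r = 0.874), IQGAP2, a scaffold protein that binds small GTPases (r = 0.866), and NXPH2, a neurexophilin (r = 0.840). SLC5A7 had 4.36 and 4.69 BPKM with pcDNA3, 114.2 and 1.06 with hsaFOXP2, 7.41 and 4.01 with ptrFOXP2, 2.05 and 5.27 with mmuFOXP2, and 2.03 and 0.894 with cjaFOXP2. Its peak in hsaFOXP2 A was higher than that of VIP, and IQGAP2 (0.633 to 5.56 BPKM) and NXPH2 (0.677 to 4.66 BPKM) were also highest in that library. The likeness for VIP therefore includes 1 library far above the others.

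**Figure D4:**
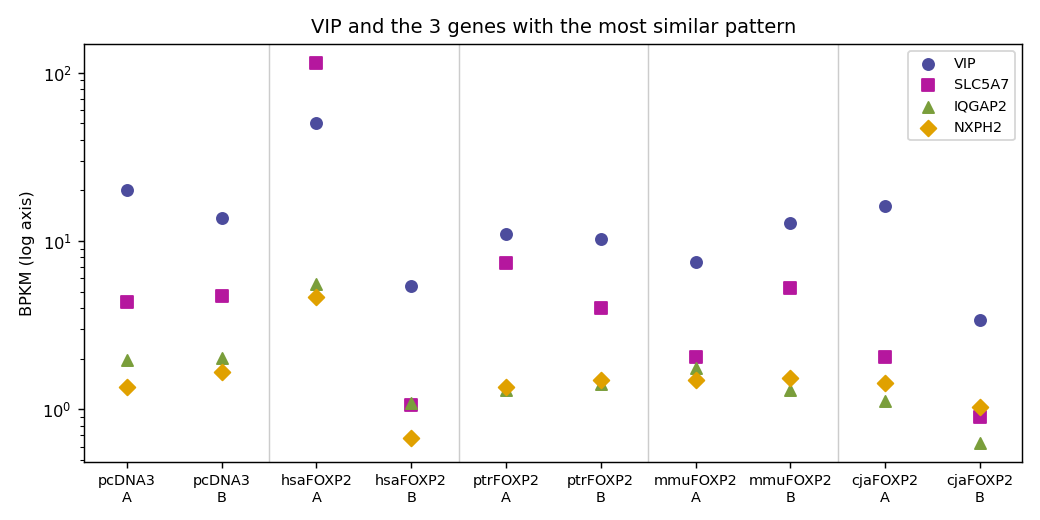
Level (BPKM, log axis) of VIP and of SLC5A7, IQGAP2 and NXPH2 in the 10 libraries. All 4 genes are highest in hsaFOXP2 A, SLC5A7 with 114.2 and VIP with 50.5 BPKM, and SLC5A7 and VIP are at 1.06 and 5.42 BPKM in hsaFOXP2 B.

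The patterns most like the other precursors belonged to genes of far smaller range. For NPY they were USP24, a ubiquitin-specific protease (r = 0.934, 5.68 to 8.34 BPKM), ATP6V0A2, a subunit of the vacuolar proton pump (r = 0.928, 5.59 to 8.41 BPKM), and SLC3A2, the heavy chain of amino acid transporters (r = 0.900, 24.1 to 34.1 BPKM). For NTS they were LDOC1 (r = 0.901, 4.47 to 9.43 BPKM), EPHX2, a soluble epoxide hydrolase (r = 0.892, 1.20 to 3.31 BPKM), and HS3ST3B1, a heparan sulfate sulfotransferase (r = 0.890, 1.13 to 5.10 BPKM). For GAL they were FAM53B (r = 0.941, 2.02 to 3.05 BPKM), C17orf96 (r = 0.896, 2.32 to 4.42 BPKM) and TLE1, a Groucho-family corepressor (r = 0.890, 3.92 to 5.37 BPKM). No gene was among the first 3 of more than 1 precursor.

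Of 57 other neuropeptide and peptide hormone precursors in the table, 49 were above 0 in some library and 11 had a mean of at least 1 BPKM. The most abundant was VGF, a granule protein and peptide precursor, at 704 (ptrFOXP2 B) to 2307 BPKM (cjaFOXP2 A), with 1559 and 1481 BPKM in the hsaFOXP2 libraries A and B, which were close to each other here. NMB, neuromedin B, ranged from 7.49 to 14.7 BPKM, NPW, neuropeptide W, from 3.78 to 11.9 BPKM, and NMU, neuromedin U, from 3.79 to 8.31 BPKM. The ranges were 3.27-fold for VGF and 1.96-fold for NMB. A wide range was not particular to the 4 detected members. UTS2, urotensin 2, which lies outside the naming rule and was picked after its values were seen, had 1.52 and 1.82 BPKM with pcDNA3, 18.9 and 1.01 with hsaFOXP2, 1.10 and 5.93 with ptrFOXP2, 9.30 and 7.91 with mmuFOXP2, and 1.07 and 0.833 with cjaFOXP2. Its 22.7-fold range was wider than those of VIP and GAL, and it too was highest in hsaFOXP2 A and far lower in hsaFOXP2 B. The other 10 precursors with a mean of at least 1 BPKM had ranges of 1.96-fold to 5.91-fold. Between hsaFOXP2 and non-human FOXP2, 0 of 43 tested precursors passed in limma (29 with a positive and 14 with a negative log2 difference, 5 at an unadjusted p under 0.05, median 0.10 against 0.01 over all genes). Against pcDNA3 0 of 44 passed (21 positive, 23 negative, 4 at an unadjusted p under 0.05), and between rounds 0 of 44 (14 positive, 30 negative, 9 at an unadjusted p under 0.05).

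Of 28 receptors of the 9 peptides in the table, 22 were above 0 and 5 had a mean of at least 1 BPKM. SORT1, or sortilin, a sorting receptor that binds neurotensin, was at 11.1 to 19.4 BPKM, its relative SORL1 at 3.75 to 7.28 BPKM and SORCS1 at 2.59 to 10.4 BPKM. NTSR1, the high-affinity neurotensin receptor, had 6.11 and 4.65 BPKM with pcDNA3, 13.9 and 0.767 with hsaFOXP2, 11.6 and 2.22 with ptrFOXP2, 18.6 and 8.49 with mmuFOXP2, and 4.24 and 3.32 with cjaFOXP2. NTSR1 was thus higher in A than in B in all 5 conditions, with a log2 difference of 1.64 (SE 0.54, adjusted p = 0.444 from limma) that did not pass. The share of all genes with the same direction in all 5 conditions was not computed. Between rounds, 2442 of 22238 genes were at an unadjusted p under 0.05 in limma. In hsaFOXP2 and ptrFOXP2 both NTS and NTSR1 were low in B, while with mmuFOXP2 and pcDNA3 NTS was higher in B. The receptors named next lie outside the naming rule and were picked for their roles after their values were seen. For NPY, NPY1R and NPY5R stayed at or below 0.00803 BPKM and NPY2R was at 0.0362 to 0.586 BPKM. For VIP, VIPR1 reached 0.0159, VIPR2 0.174 and ADCYAP1R1, the PACAP receptor, 0.00661 to 1.07 BPKM, and for galanin GALR1 was listed at 0 and GALR2 reached 0.0563 BPKM. SSTR2, a receptor of the undetected somatostatin, was at 1.17 to 3.33 BPKM. Between hsaFOXP2 and non-human FOXP2, 0 of 19 tested receptors passed in limma (15 positive, 4 negative, 3 at an unadjusted p under 0.05, median 0.15 against 0.01 over all genes), as did 0 of 19 against pcDNA3 (4 at an unadjusted p under 0.05) and 0 of 19 between rounds (3 at an unadjusted p under 0.05).

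All 24 genes listed for precursor processing and packaging were above 0. The granin SCG2, which is itself a peptide precursor, was at 451 to 1853 BPKM, PAM, which amidates the C-terminus of peptides such as NPY and VIP, at 123 to 198 BPKM, FURIN, a convertase of the constitutive pathway, at 31.8 to 53.7 BPKM, and CPE, the carboxypeptidase that trims cut precursors, at 25.0 to 52.0 BPKM. PCSK1 and PCSK2, the main convertases of granule precursors, which were picked for their role after their values were seen, reached 0.0158 and 0.000528 BPKM. Amidation and trimming enzymes were thus abundant in the RNA and these convertases near 0. Between hsaFOXP2 and non-human FOXP2, 0 of 24 passed in limma (15 positive, 9 negative, 3 at an unadjusted p under 0.05, median 0.01, as over all genes), and 0 of 24 against pcDNA3 (3 at an unadjusted p under 0.05) and between rounds (2 at an unadjusted p under 0.05).

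Of 18 peptidases that degrade neuropeptides, all above 0, ECE1 was at 43.1 to 77.2, NPEPPS at 29.5 to 37.7 and FAP at 12.2 to 33.1 BPKM. MME, or neprilysin, which cuts enkephalins and substance P, had 19.9 and 26.7 BPKM with pcDNA3, 2.61 and 46.1 with hsaFOXP2, 17.8 and 55.1 with ptrFOXP2, 9.84 and 26.2 with mmuFOXP2, and 16.8 and 22.7 with cjaFOXP2. MME was lower in A than in B in all 5 conditions, the opposite of NTSR1, with a log2 difference of -1.60 (SE 0.52, adjusted p = 0.443 from limma). As for NTSR1, the share of all genes with the same direction throughout was not computed. MME was lowest in hsaFOXP2 A, where VIP, NTS and NPY were highest. Of the 18 peptidases 0 passed in limma in each of the 3 comparisons, with 1, 1 and 2 at an unadjusted p under 0.05 for hsaFOXP2 against non-human FOXP2, FOXP2 against pcDNA3 and A against B.

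**Figure D5:**
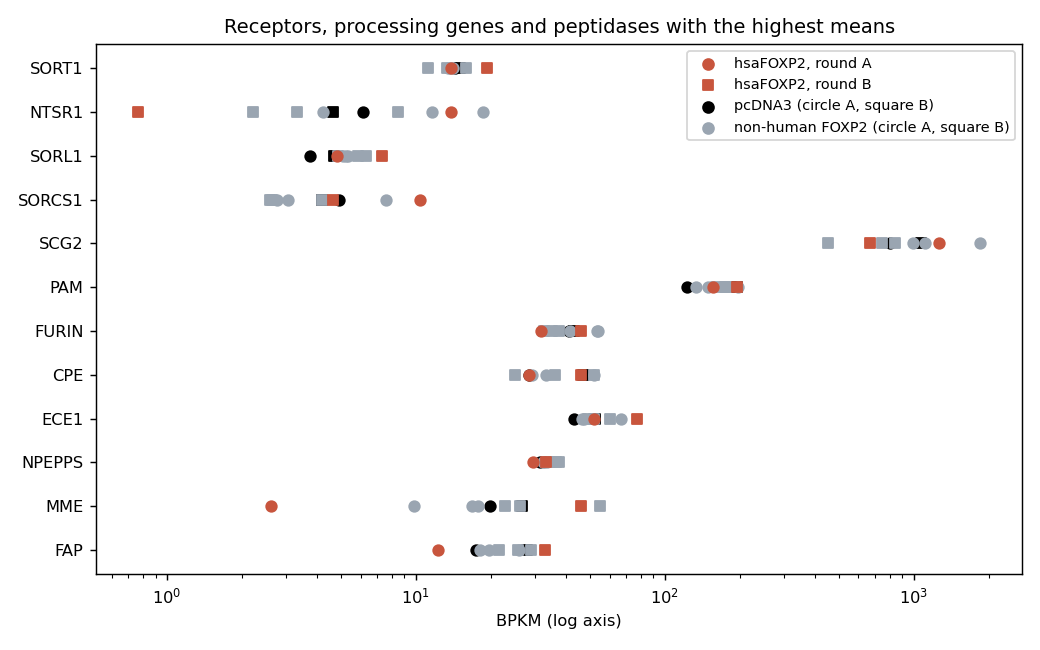
Level (BPKM, log axis) of the 4 most abundant receptors, processing genes and peptidases in the 10 libraries, with circles for round A and squares for round B. NTSR1 (0.767 to 18.6 BPKM) and MME (2.61 to 55.1 BPKM) are spread most widely, and hsaFOXP2 A and B lie at or near opposite ends for both.

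Genes of the cAMP and activity response were included because many neuropeptide genes respond to cyclic AMP through the CRE. The list also holds regulators such as CREB1, CREB3L1 and the CRTC coactivators. The promoters of these genes were not examined for a CRE gene by gene. Of the 4 most abundant, the CREB coactivator CRTC2 was at 18.8 to 22.8 and JUNB at 11.9 to 19.6 BPKM in all libraries. The immediate early gene EGR1 was at 3.00 and 8.56 BPKM in hsaFOXP2 A and B, at 9.26 to 24.4 BPKM in the non-human libraries and at 15.4 and 15.1 BPKM in the controls (log2 difference -1.39, SE 0.47, adjusted p = 0.97 from limma between hsaFOXP2 and non-human FOXP2). The share of all genes with both hsaFOXP2 libraries below the others, as for EGR1, was not computed. CREB3L1 was at 3.69 and 18.3 BPKM in hsaFOXP2 A and B and at 11 to 15.3 BPKM in the non-human libraries. Of the 24 genes, 0 passed in limma between hsaFOXP2 and non-human FOXP2 (9 positive, 15 negative, 3 at an unadjusted p under 0.05, median -0.14 against 0.01 over all genes), 0 against pcDNA3 (1 at an unadjusted p under 0.05) and 0 between rounds (3 at an unadjusted p under 0.05). Of the listed precursors, receptors, processing genes, peptidases and genes of the cAMP list, only CREB3L1 passed under any alternative run. That run was without hsaFOXP2 B, which leaves only hsaFOXP2 A in its group (log2 difference -1.83). The cell type markers were not checked in the alternative runs.

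Markers of other cells were examined beside the precursors. The 14 mesenchymal markers summed to 2769 to 3899 BPKM, all 14 above 0, with 3089 to 3477 BPKM with hsaFOXP2, and 0 of 14 passed in limma in each comparison (2, 2 and 0 at an unadjusted p under 0.05). The 8 Schwann cell and glia markers summed to 1.60 to 7.40 BPKM, with CDH19 listed at 0 throughout and SOX10 at most 0.0143 BPKM. Between hsaFOXP2 and non-human FOXP2, all 6 tested had a negative log2 difference and 0 passed in limma (1 at an unadjusted p under 0.05). The 10 endothelial and blood cell markers summed to 7.58 to 22.5 BPKM, nearly all of it from the lysosomal CD68 (7.28 to 22.4 BPKM), while PECAM1 and PTPRC stayed below 0.05 BPKM.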

How the data were processed

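The authors selected polyadenylated RNA, aligned reads to hg19 with STAR (no version is given in the sources used here), counted them over the exons of UCSC transcripts and deposited BPKM. The deposited values are RPKM computed on bases, for 80922 transcripts, of which 2 without a symbol were left out. They hold no counts, the depth is unknown, and no source used here says whether strand was used in counting.

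BPKM was averaged over the transcripts of each symbol. Genes above 0 in at least 2 of the libraries fitted were tested with limma 3.58.1 (R 4.3.3; trend and robust moderation) on log2(BPKM + 0.1), which understates changes of low genes, with Benjamini-Hochberg adjustment over all genes and a threshold of 0.05. Human and non-human FOXP2 were compared over 8 libraries, and FOXP2 with pcDNA3 and the rounds over 10. The script was tested on simulated data. Other steps used Python 3.11.15, pandas 2.3.3, numpy 2.4.6 and matplotlib 3.10.9.

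Members and gene lists were chosen with earlier results of these data known. Named were all members, the 4 most abundant genes of each list and any that passed, the 3 genes most like each detected member, and FOXP2. Cell type markers were named for their roles. Replicate letters pair the libraries, since the labels tie them to transfection rounds, and a replicate block was tried. Correlations between conditions of the A to B differences were -0.194 to 0.369, above 0.1 in 5 of 10 pairs. The pseudocount (1 or 0.01) and the filter (a mean of 1 BPKM, or none) were varied, and median-ratio scaling, sums over transcripts, no condition term and leaving out each library were tried.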

Additional observations from a re-analysis of the deposited data

Results flagged for a closer look

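NPY in hsaFOXP2 A (18.1 BPKM) stood apart from the other FOXP2-transfected libraries, with a gap of 0.745 of their whole range (critical value 0.526 for 8 libraries), and from the other libraries of round A, with a gap of 0.757 (critical value 0.71 for 5 libraries). VIP in hsaFOXP2 A (50.5 BPKM) stood apart from the other FOXP2-transfected libraries with a gap of 0.729 of their range. In all, 16 groups were examined and 3 had a library apart. The gaps were taken on BPKM without a log, where a high value weighs more, and log values were not examined. The members were also chosen with these values known, so the count is not set against chance. All 3 are the same library, and the groups overlap.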

How the results depend on the processing

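None of the 4 detected precursors passed in limma under any alternative run. Between hsaFOXP2 and non-human FOXP2, 2 genes passed, 1 with a pseudocount of 1, 1 with a mean of at least 1 BPKM, 11 without a filter, and 1 to 40 with a library left out (40 without hsaFOXP2 B, 8 without hsaFOXP2 A, 1 without any single non-human library). For FOXP2 against pcDNA3, 1 gene passed, 0 with a mean of at least 1 BPKM, 24 without a filter, 2 with sums over transcripts, and 1 to 8 with a library left out (8 without pcDNA3 B). Between rounds 0 passed, 1 with a mean of at least 1 BPKM, 1 without a filter, and 0 to 1 with a library left out (1 without hsaFOXP2 A or B). The cause was not tested. With the replicate letter as a block, the pairing left 2 genes between hsaFOXP2 and non-human FOXP2 and 1 against pcDNA3, and it changed no other call.

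The log2 difference between hsaFOXP2 and non-human FOXP2 kept its sign in 15 of 15 alternatives for NPY and 14 of 14 for GAL, in 14 of 15 for VIP and in 13 of 15 for NTS. Against pcDNA3 all 4 precursors kept theirs in 17 of 17 (NPY -1.42 to -0.70, NTS -1.79 to -0.83, GAL -1.52 to -0.03, VIP -1.03 to -0.23). Between rounds NTS (0.85 to 1.94) and VIP (0.53 to 1.52) kept theirs in 17 of 17, and NPY (-0.32 to 0.79) and GAL (-0.19 to 0.45) in 13 of 17. With 2 libraries a condition and unknown depth, small differences of GAL and values of 0 could not be resolved.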
